A study of Mus musculus with 27 samples.

Results

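Cycling inner root sheath precursors were defined here as single cells of mouse back skin that held both inner root sheath (IRS) keratin transcripts and transcripts of proliferation genes. The skin came from 2 wild-type, untreated mice at postnatal day 32, in full anagen (AnaVI), the growth phase of the hair cycle, and each mouse gave 1 droplet library. According to the study's methods, cells had been enriched by flow cytometry for those negative for CD45, CD31, CD140a and CD117. The same series also holds 2 single-cell libraries of cultured hair follicle stem cells (HFSCs) and bulk assays of HFSC cultures, which were not compared here except for a count of cells in the cultured libraries. A cell was kept if it had at least 500 genes, at least 1000 unique molecular identifiers (UMIs, each a counted transcript) and under 10% mitochondrial UMIs. A kept cell was a precursor if Krt25, Krt27, Krt28, Krt71 and Krt73 together made up at least 0.3% of its UMIs and if Top2a, Mki67 and Cenpf together gave at least 3 UMIs. The cells were thus chosen by the measured UMIs of these 8 genes, whose values are given as description. The precursors numbered 938 of 28373 kept cells (3.31%), with 546 in mouse 1 and 392 in mouse 2, and of 28729 kept cells when the cultured libraries were counted too.

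The IRS is the rigid epithelial tube that moulds and guides the growing hair shaft and is degraded before the hair emerges from the skin. Its cells arise from transit-amplifying matrix progenitors at the base of the hair bulb, which divide beside the dermal papilla, and they leave the cell cycle as they move upwards and form the Henle layer, the Huxley layer and the cuticle of the IRS. Early IRS cells need the transcription factor Gata3, and maturing IRS cells assemble IRS-specific type I keratins (Krt25, Krt27, Krt28) with type II keratins (Krt71 across layers, Krt72 and Krt73 in the IRS cuticle) and embed them in trichohyalin (Tchh), which is cross-linked as the cell hardens.

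The IRS keratin genes sit in 2 clusters. Krt71, Krt72 and Krt73 lie within 68.4 kb on chromosome 15 (chr15:101733949-101802346), and Krt25, Krt26, Krt27 and Krt28 within 59.4 kb on chromosome 11 (chr11:99315516-99374903; both GRCm38). The promoters of the IRS keratins on which the choice of cells rested most, and that of Krt73, are shown to let their layout be compared, from 250 bases before to 50 bases after the annotated start, from RefSeq on GRCm38.p6. The windows are chr15:101743048-101743347 for Krt71, chr11:99322902-99323201 for Krt25 and chr15:101802311-101802610 for Krt73, all on the minus strand. Capitals mark GATA motifs (AGATAA, with T also allowed as the first letter and G as the last, searched on both strands) and the TATA motif TATAAA on the coding strand.
Krt71: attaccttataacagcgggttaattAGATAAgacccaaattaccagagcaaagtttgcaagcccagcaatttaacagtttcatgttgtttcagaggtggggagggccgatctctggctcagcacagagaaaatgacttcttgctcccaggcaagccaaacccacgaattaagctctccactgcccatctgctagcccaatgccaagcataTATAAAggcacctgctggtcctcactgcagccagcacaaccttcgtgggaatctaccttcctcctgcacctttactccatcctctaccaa
Krt25: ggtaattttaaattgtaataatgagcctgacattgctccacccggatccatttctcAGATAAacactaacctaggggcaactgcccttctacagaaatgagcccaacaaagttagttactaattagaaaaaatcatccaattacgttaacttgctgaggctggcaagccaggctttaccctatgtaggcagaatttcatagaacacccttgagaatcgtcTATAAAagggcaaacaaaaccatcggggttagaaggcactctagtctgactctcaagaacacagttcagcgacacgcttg
Krt73: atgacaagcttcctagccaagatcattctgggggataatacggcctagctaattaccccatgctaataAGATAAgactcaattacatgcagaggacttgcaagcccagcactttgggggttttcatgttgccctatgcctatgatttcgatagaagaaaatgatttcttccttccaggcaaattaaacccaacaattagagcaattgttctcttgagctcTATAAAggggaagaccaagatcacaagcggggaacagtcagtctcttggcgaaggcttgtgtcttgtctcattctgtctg
A GATA motif began 225 bases before the start of Krt71, 194 bases before that of Krt25 and 182 bases before that of Krt73. TATAAA began 40, 30 and 30 bases before these starts. Of the 5 keratins of the rule, 5 had TATAAA and 4 had a GATA motif in this window, all but Krt28. Of the IRS keratins outside the rule, Krt26 had TATAAA and no GATA motif, and Krt72 had neither. Over the 11 genes with a promoter entry that were looked up, 6 had a GATA motif, 7 had TATAAA and 4 had both, and the 3 printed are among those 4. Among all 32851 promoters of the same length, 8.32% held TATAAA, 29.8% a GATA motif and 3.53% both. These are matches of letters, and binding was not measured.

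Precursors made up 3.78% of kept cells in mouse 1 (exact Clopper-Pearson 95% interval 3.47 to 4.10) and 2.82% in mouse 2 (2.55 to 3.11), intervals that cover counting error only. The sort and the dissociation can set such shares. Collagen-rich cells, defined below, numbered 7307 of 14458 kept cells in mouse 1 and 8442 of 13915 in mouse 2. The shares are therefore not shares of epithelium, although the sort was against CD140a. The keratin part of the rule was met by 916 cells (6.34%) in mouse 1 and 566 cells (4.07%) in mouse 2, of which 59.6% and 69.3% also met the cycling part. At these thresholds, most cells over the keratin threshold were therefore cycling in both libraries. At 1% IRS keratin, 87 and 43 cells met the cycling part, and 75 and 31 had 0 cycling UMIs. A fixed count of 3 UMIs is easier to reach in deeper cells. Median depth was 11656.5 and 14093 UMIs in precursors, and 7970.5 and 9800 in keratin-positive cells with 0 cycling UMIs. The cycling part was met by 3848 and 3770 cells, and precursors were 14.2% and 10.4% of these. Among cycling cells, the keratin share fell off gradually with no gap at the threshold. In mouse 1, 1166 cycling cells lay between 0.1% and 0.3%, 459 between 0.3% and 1%, 86 between 1% and 3%, and 1 cell above. In mouse 2 the corresponding numbers were 730, 349, 42 and 1. The precursors are thus a range of a continuous measure. Just inside the keratin threshold (0.3% to 0.35%) there were 72 precursors in mouse 1 and 68 in mouse 2, and just outside it (0.25% to 0.3%) there were 107 and 69 cycling cells. Precursors with exactly 3 cycling UMIs numbered 42 and 35, and keratin-positive cells with 2 such UMIs numbered 75 and 42.

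**Figure D1:**
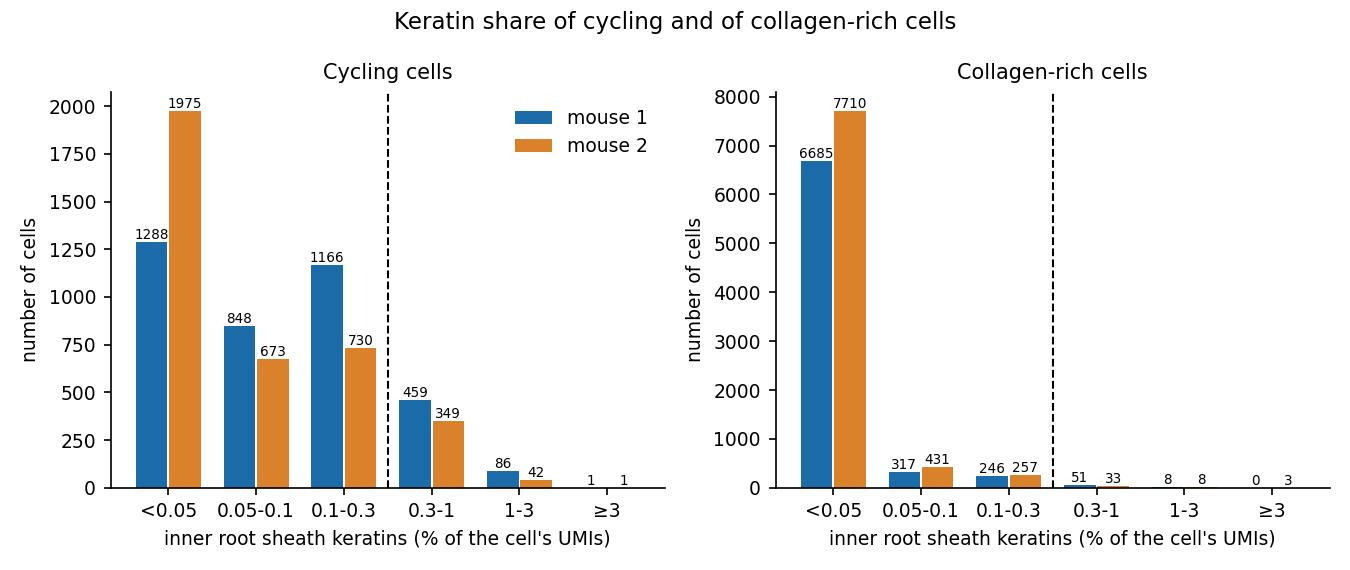
Numbers of cycling cells (left) and of collagen-rich cells (right) by the share of their UMIs in the 5 IRS keratins (x axis, %), with 1 bar per mouse and the cell number above each bar; the dashed line is the 0.3% threshold. Cycling cells thin out without a gap across the line, whereas 59 collagen-rich cells of mouse 1 and 44 of mouse 2 lie beyond it.

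Free RNA in droplets can give keratin UMIs to cells that do not express them, so the same threshold was read in collagen-rich cells (Col1a1, Col1a2, Col3a1 and Dcn at least 0.5% of UMIs), which should lack IRS keratins. Among all kept cells 6.34% and 4.07% passed it. It was passed by 59 of 7307 such cells in mouse 1 (0.807%, 0.615 to 1.04) and by 44 of 8442 in mouse 2 (0.521%, 0.379 to 0.699), at median depths of 8944 and 10631 UMIs. Their median keratin share was 0.00907% and 0.00553%, against 0.548% and 0.495% in the precursors, which were sequenced to a median of 11656.5 and 14093 UMIs. The precursors themselves included 30 collagen-rich cells (5.49%) in mouse 1 and 20 (5.10%) in mouse 2. Scrublet called 27 precursors (4.95%) in mouse 1 and 16 (4.08%) in mouse 2 as doublets, against 6.36% and 3.77% of all kept cells, and these were kept in the main analysis. In the cycling Msx2/Lef1 class used further on, it called 217 of 1373 and 147 of 1504 cells, and without all called doublets that comparison gave 473 calls in place of 606. Among collagen-rich cells, Scrublet called 29 of 51 and 10 of 33 at 0.3% to 1% keratin, and 4 of 8 and 0 of 8 at 1% to 3%. How much of the collagen-rich share came from free RNA or from doublets was not tested. The 2 libraries shared 62 barcodes, of which none belonged to a precursor in both libraries and 2 precursors had a barcode that recurred among kept cells of the other mouse.

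UMIs of the precursors summed to 6825043 in mouse 1 and 5734100 in mouse 2, with 1826 to 50225 UMIs per cell over both mice and median gene numbers of 3633 and 4159. Median mitochondrial shares were 4.37% and 4.29%. Whole libraries held 145318618 and 167258677 UMIs over 16521 and 16068 barcodes. Levels below are CPM, the UMIs of a gene per 1000000 UMIs summed over the cells of a class in 1 mouse, and pairs of values give mouse 1 before mouse 2. The assay counts 3′ ends, so CPM values are compared between classes for the same gene.

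Levels of the genes that chose the cells come first, as description, since the rule itself makes their sums high. Krt71, the main type II keratin of the IRS, was at 3538 and 3411 CPM in precursors and at 387 and 237 CPM over all kept cells. Krt25, its type I partner, was at 2043 and 1731 CPM, Krt28 at 1030 and 968 CPM, and Krt27 at 143 and 138 CPM. The 2 mice lay close to each other for each of these keratins. Krt73, a keratin of the IRS cuticle, was at 217 and 238 CPM. Top2a, the topoisomerase of dividing cells, was at 984 and 857 CPM, Mki67, the proliferation antigen, at 533 and 586 CPM, and Cenpf, a kinetochore protein, at 399 and 388 CPM. The marker that the rule did not use, Ctsc, a lysosomal dipeptidyl peptidase that activates serine proteases, stood at 452 and 333 CPM against 75.9 and 59.3 CPM over all kept cells. Krt71 UMIs were found in 523 of the 546 precursors of mouse 1 and in 373 of the 392 of mouse 2, and it took 107 and 74 cells to hold 50% of them, so that the level was not carried by a few cells. The other IRS keratin genes were sparse. Krt72 was at 10.1 and 8.2 CPM and Krt26 at 1.32 and 1.05 CPM, and Krt74 was not analysed here.

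Precursors at 1% to 3% IRS keratin (86 and 42 cells) were compared with those at 0.3% to 1% (459 and 349 cells) as a description, since the bins were cut on the measure that chose the cells. Gata3, the zinc finger factor of early IRS cells, was almost level across these bins, at 399 and 451 CPM in the lower bin and 430 and 503 CPM in the higher one. Krt71 itself was at 2716 and 2813 CPM in the lower bin and at 7804 and 6775 CPM in the higher one. Ctsc was at 414 and 311 CPM, then at 655 and 493 CPM. Dsc1, a desmosomal cadherin of differentiated layers, was at 35.6 and 32 CPM, then at 83.1 and 81.2 CPM. Lhx2, a LIM homeobox factor of hair progenitors, went the other way in both mice, from 52.6 and 65.1 CPM to 21.5 and 22.1 CPM. Cycling cells just short of the keratin threshold (0.1% to 0.3%; 1166 and 730 cells) already held Gata3 at 216 and 247 CPM and Ctsc at 108 and 117 CPM, with Krt71 at 337 and 369 CPM. Gata3 and Ctsc, which the rule did not use, thus lay higher in precursors than in cycling cells with fewer keratin UMIs, in both mice. Both genes were listed with earlier results of these data known, so this is description and no independent support. The difference in Krt71 follows from the cut on the keratin share.

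**Figure D2:**
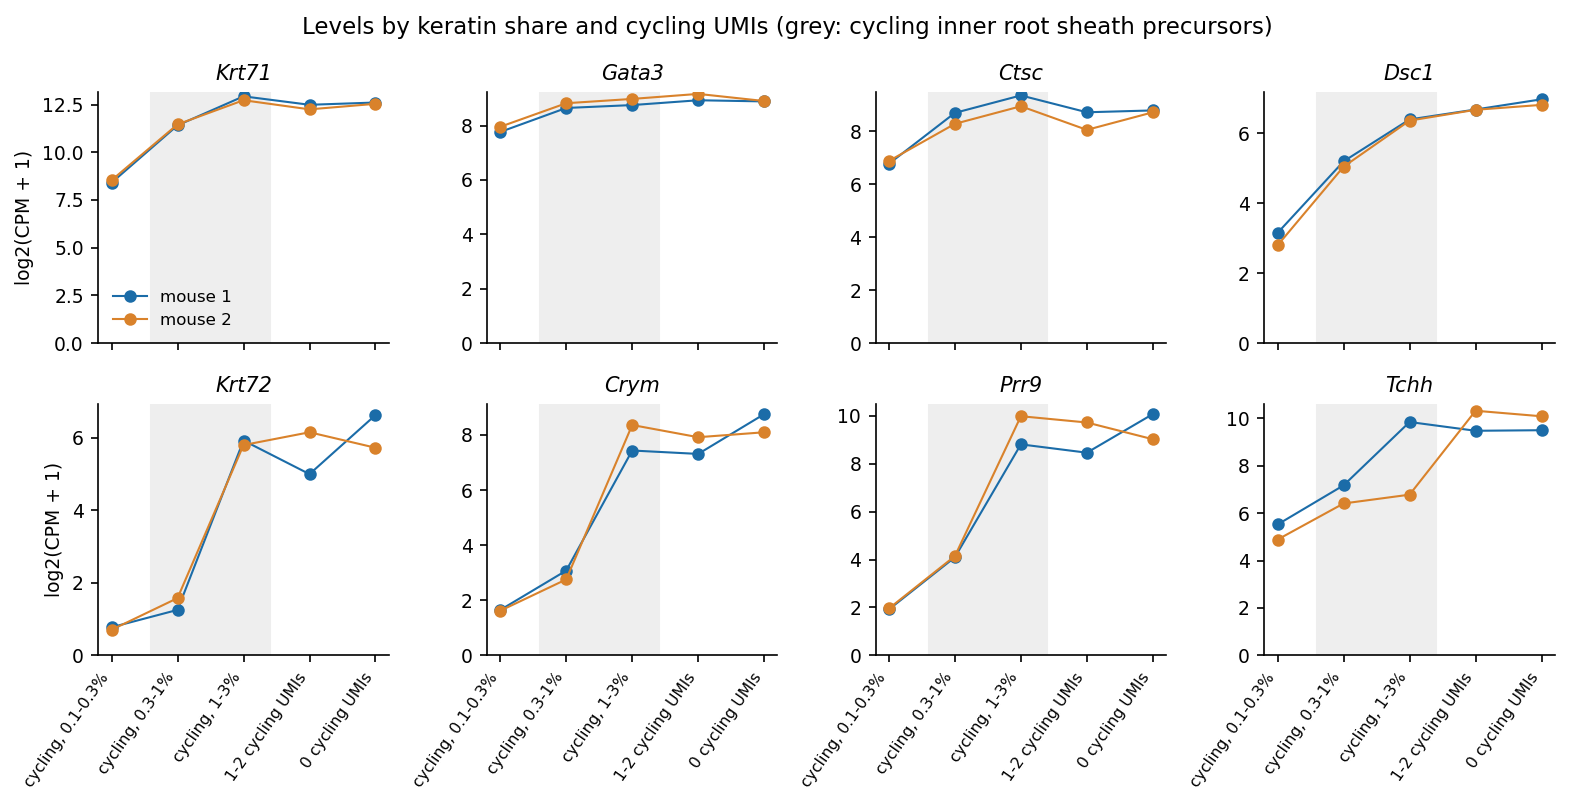
Levels of 8 genes as log2(CPM + 1) (y axis, 1 point per mouse, no error bars) in cycling cells at 0.1% to 0.3% IRS keratin, in precursors at 0.3% to 1% and 1% to 3% (grey band), and in keratin-positive cells with 1 to 2 or 0 cycling UMIs; lines join the values of 1 mouse. Gata3 is nearly flat across the grey band, whereas Krt72, Crym and Prr9 are low in its left part and high in its right part in both mice. In each mouse, 10 precursors hold most of the precursors' UMIs of Krt72, Crym and Prr9.

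A few precursors carried most transcripts of several genes. Krt72, Crym (a thyroid hormone-binding crystallin), Prr9 (a proline-rich protein), Cryba4 (a beta-crystallin) and Fbp1 (fructose-1,6-bisphosphatase) were chosen for this description after their values were seen. UMIs of at least 3 of these 5 genes were present in 10 precursors of mouse 1 (1.83%) and in 10 of mouse 2 (2.55%). These cells held 89.9% and 91.5% of the precursors' Krt72 UMIs, 93.2% and 95.2% of Crym UMIs and 93.5% and 97.3% of Prr9 UMIs. They also held Krt73 at 3886 and 4687 CPM, against 146 and 113 CPM in the remaining precursors. Krt71 was low in the same cells, at 625 and 753 CPM against 3594 and 3485 CPM. Ctsc was at 77.1 and 25.5 CPM against 459 and 342 CPM, whereas Gata3 was at 802 and 983 CPM against 395 and 441 CPM. These 20 cells thus combined high Krt72 and Krt73, the keratins of the IRS cuticle, with low Krt71 and Ctsc in both mice. They lay near the cycling threshold, with a median of 4.5 and 3.5 cycling UMIs against 19 and 21.5, and 6 and 7 of them had fewer than 6. Their median depth was 12417.5 and 13999 UMIs, close to that of the rest, and none was called a doublet. Tchh, the matrix protein of the hardened IRS, was spread differently. In mouse 2, 1 precursor held 539 of 1037 Tchh UMIs, whereas in mouse 1 7 cells held 50% of them.

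Cell cycle genes outside the rule were high in precursors, as follows from choosing cells on proliferation genes. The 27 genes of S phase (DNA replication) took 0.193% and 0.197% of precursor UMIs, and the 30 genes of G2 and M phase (mitosis) 0.475% and 0.413%. In keratin-positive cells without cycling UMIs, S phase genes took 0.047% and 0.0623%, and G2 and M genes 0.0298% and 0.0309%. The shares of S phase genes and of G2 and M genes changed differently along the keratin share, which is again a description. S phase genes were scarcer in precursors at 1% to 3% keratin, at 0.112% and 0.0987% of UMIs, against 0.208% and 0.211% at 0.3% to 1% and 0.286% and 0.299% in cycling cells at 0.1% to 0.3%. G2 and M genes stood at 0.429% and 0.391%, 0.485% and 0.416%, and 0.385% and 0.325% in the same order. The most keratin-rich cycling cells thus had less of the replication genes but not of the mitotic genes than the cycling cells short of the threshold, in both mice. All these cells had to hold at least 3 UMIs of Top2a, Mki67 and Cenpf. That choice can keep the mitotic share up, so no shift between phases is read from these values. Pcna, the sliding clamp of DNA replication, was at 88.9 and 67.9 CPM in the 1% to 3% bin and at 158 and 170 CPM in the 0.3% to 1% bin.

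**Figure D3:**
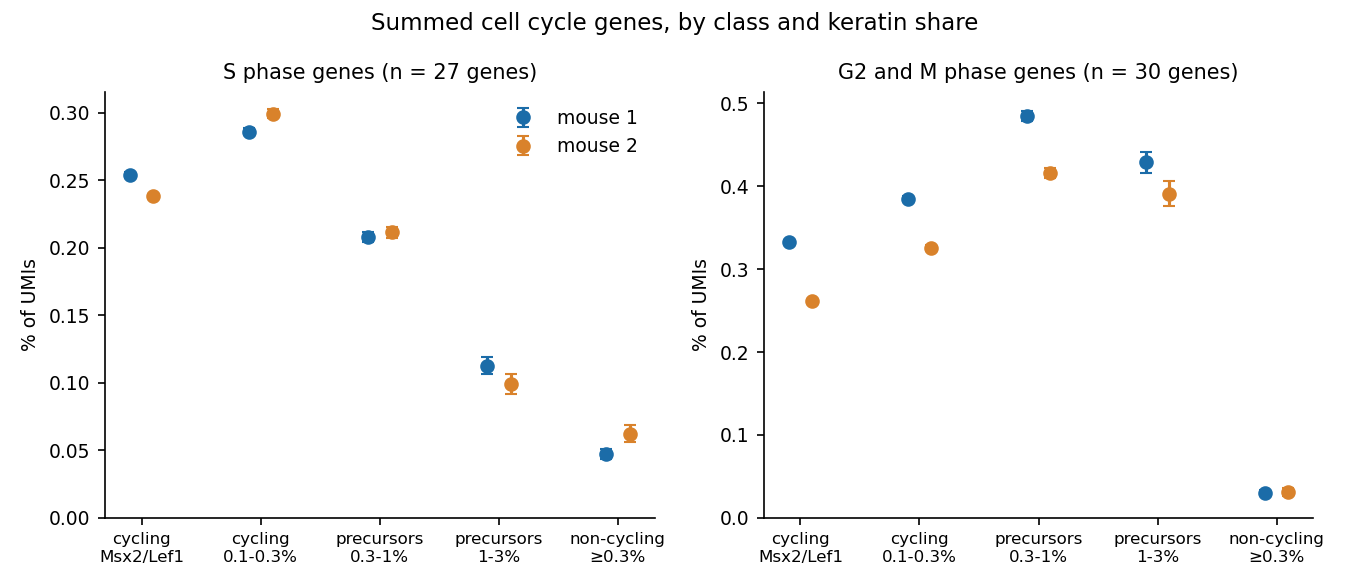
Share of UMIs (y axis, %) in 27 S phase genes (left) and 30 G2 and M phase genes (right) for cycling Msx2/Lef1 cells, cycling cells at 0.1% to 0.3% IRS keratin, precursors at 0.3% to 1% and 1% to 3%, and non-cycling keratin-positive cells; points are mice and bars are exact 95% intervals for counting error. The S phase share lies at 0.208% and 0.211% in the lower and 0.112% and 0.0987% in the higher precursor bin, while the G2 and M share stays above 0.39% in both bins.

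To describe how precursors differ from keratin-positive cells outside the cycle, their UMIs were summed per mouse and compared with those of 156 and 69 non-cycling cells that met the keratin part of the rule and had 0 UMIs of Top2a, Mki67 and Cenpf. Precursors held far more transcripts of mitosis and DNA replication genes, as follows from choosing the classes on proliferation genes. They held fewer of Tchh, Crym and Prr9, and Gata3 did not pass the call. A gene was called where edgeR's quasi-likelihood test gave a Benjamini-Hochberg adjusted p under 0.01 and the log2 fold change exceeded 1 in size. Of 13451 genes tested, 294 were called (2.19%), 259 higher in precursors (1.93%) and 35 lower (0.26%). With the mouse as a replicate block, since the sums of a number come from the same animal, 427 genes were higher and 126 lower. DESeq2 gave 370 higher and 138 lower, so that the higher share of calls went from 88.1% to 72.8%. The count rested on the small non-cycling class, as edgeR called 0 genes without the non-cycling cells of mouse 1 (2195 genes at an unadjusted p under 0.05, and 228 calls by DESeq2) and 121 genes without those of mouse 2. In both cases all 294 genes kept their sign. The calls describe sums of cells split on cycling genes in these 2 mice and do not test that split.

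The classes were split on proliferation genes, so higher cell cycle genes follow from that choice and are given as description. Of the mitotic genes, 29 of 30 were called higher, with a median log2 fold change of 3.81. Over all genes tested, 1.93% were called higher and the median was -0.0041. Tpx2, a spindle assembly factor, was at 171 and 175 CPM in precursors and at 4.58 and 3.05 CPM in non-cycling cells (log2 fold change 5.41, SE 0.29). Ube2c, which tags mitotic cyclins for destruction, was at 685 and 460 CPM against 16.0 and 13.7 CPM (5.25, SE 0.45). Hmmr and Nusap1, both spindle proteins, differed by 5.14 and 5.13, and Fbxo5, an inhibitor of the anaphase-promoting complex, by 4.95. Tpx2, Ube2c, Hmmr, Nusap1 and Fbxo5 were named by rank, which required that the mice did not overlap between the classes. Cit, the citron kinase of cytokinesis, had 665 UMIs in precursors and 1 UMI in non-cycling cells, a level ratio of 104 with an exact 95% counting interval of 18.6 to 4120. Cdca2, a mitotic phosphatase subunit, had 673 UMIs against 3, a ratio of 35.1 (12 to 171). Hist1h2ae, an H2A histone, was at 189 and 351 CPM against 4.58 and 15.2 CPM. S phase genes were called higher in 19 of 27 cases (median 1.93), among them Pcna at 147 and 158 CPM against 45.0 and 54.9 CPM (1.64, SE 0.19). Of 15 tested genes of the exit from the cycle, only Cdkn2c, a cyclin-dependent kinase inhibitor, was called, and it was higher in precursors (2.57, SE 0.29).

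Structural IRS genes outside the rule were lower in precursors in 3 of 11 tested cases and higher in 0, with a median of -1.59. Of all genes tested, 0.26% were called lower and 1.93% higher. The lower side depended on the keratin threshold, since at 1% IRS keratin in place of 0.3% the calls were 122 higher and 1 lower. Tchh was at 262 and 181 CPM in precursors and at 725 and 1091 CPM in non-cycling cells (log2 fold change -2.01, SE 0.28, edgeR adjusted p = 0.0050). Crym was at 32.1 and 43.8 CPM against 431 and 273 CPM (-3.23, SE 0.34, edgeR adjusted p = 0.0011), and Padi3, which converts arginine of trichohyalin to citrulline, at 11.4 and 14.1 CPM against 57.2 and 38.1 CPM (-1.95, SE 0.29). All of these were lower in both mice. Krt72 was at 10.1 and 8.2 CPM against 97.6 and 51.8 CPM and missed the threshold (-3.07, SE 0.52, edgeR adjusted p = 0.012). Among the called genes with the largest negative differences were also Prr9 at 80.6 and 134 CPM against 1074 and 518 CPM (-2.92), Cryba4 (-3.31) and Fbp1 (-2.21), the genes carried by few precursors. Ly6d, a membrane-anchored surface protein of keratinocytes, was at 110 and 120 CPM against 495 and 526 CPM (-2.14). Tm4sf1, a membrane protein, and Pitpnc1, a lipid transfer protein, differed by -2.35 and -2.07. Of 19 desmosome and junction genes, Dsc1 was called, at 43.1 and 38.5 CPM against 124 and 111 CPM (-1.53, SE 0.19, edgeR adjusted p = 0.0024). Of the 67 called genes in a list or named by rank, 33 kept their call in 5 of the 6 leave-outs and were lost without the non-cycling cells of mouse 1, as were all others. Crym, Prr9, Fbp1, Ly6d and Tm4sf1 were among the 33, whereas Tchh and Dsc1 also lost theirs without the precursors of mouse 2 and Padi3 and Cryba4 without those of mouse 1.

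Few regulators passed the call between precursors and non-cycling keratin-positive cells, which does not show that the others were alike. The share called over all genes tested was 2.19%, so few calls are no trait of these lists. Of 31 hair lineage transcription factors, 1 was called: Lhx2 at 47.8 and 59.8 CPM in precursors and 18.3 and 16.8 CPM in non-cycling cells (log2 fold change 1.59, SE 0.23, edgeR adjusted p = 0.0061). Gata3 was at 403 and 456 CPM against 472 and 477 CPM (-0.14, SE 0.18), and Cux1, a homeobox repressor, at 1379 and 2270 CPM against 1523 and 2337 CPM (-0.07, SE 0.30). For Cux1 the distance between mice was larger than that between classes. Runx1, a Runt factor of hair progenitors, was at 62.3 and 71.3 CPM against 116 and 140 CPM and missed the threshold (-0.92, SE 0.18, edgeR adjusted p = 0.021). No gene was called among the tested members of the BMP (17), Wnt (23), Notch (12), hedgehog (9), FGF, EGF and IGF (18) and retinoid (18) pathways, whose medians lay between -0.16 and 0.44. Of the 11 tested proteases and inhibitors 0 were called, and Ctsc was at 452 and 333 CPM against 442 and 421 CPM. Of the markers of other cells, Krt75 of the companion layer was lower in precursors at 39.9 and 48.3 CPM against 125 and 212 CPM (-1.90). The antigen presentation genes Cd74 (-1.95) and H2-Aa (-2.51) were lower as well, and the 8 immune markers together took 0.00667% and 0.00677% of precursor UMIs against 0.0163% and 0.0233% of those of non-cycling cells, and 5 cells held 73.6% and 60.8% of these precursor UMIs. The sign of Krt75 turned at 1% IRS keratin (0.072) and that of Cd74 with 1000 genes and under 5% mitochondrial UMIs (1.45). The part of other cells' RNA in this comparison was not tested.

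For the second comparison, precursors were set against a class named by its rule as cycling Msx2/Lef1 cells, 1373 in mouse 1 and 1504 in mouse 2, which had IRS keratins under 0.1% of UMIs, at least 2 UMIs of Msx2 and Lef1 and Krt5 with Krt14 under 1% of UMIs. Msx2 and Lef1 are transcription factors of matrix and hair shaft precursors, and Lef1 also acts in dermal papilla cells. The class was not pure, since 1142 and 1123 of its cells remained without collagen-rich cells. Precursors had more of 11 junction genes, of Gata3, Foxn1, Dlx5 and Notch3 and of Ctsc, and less of Hoxc13, Jag2 and Tcf7l1. The classes were split on IRS keratins, Msx2 and Lef1, so genes that go along with these can differ through that choice. The calls are given as description and do not test that split. Both comparisons use the same precursor sums, so they are not independent of each other. Of 13451 genes, 606 were called by the same edgeR test (4.51%), 262 higher in precursors (1.95%) and 344 lower (2.56%). With the mouse as replicate block, 381 were higher and 1108 lower, and DESeq2 gave 330 and 645. Without the precursors of mouse 1 the count was 307 (165 higher, 142 lower) and without those of mouse 2 it was 324 (183 and 141), so that the balance of directions turned, and all 606 genes kept their sign in both cases. Of the 78 called genes that were in a list or named by rank, 45 stayed called whichever of the 6 sums was left out. The median log2 fold change over all genes tested was 0.035.

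Fibroblast RNA moved with this comparison. The 11 fibroblast and dermal papilla markers, all detected in each class, took 0.394% and 0.448% of precursor UMIs, against 0.851% and 1.49% of those of Msx2/Lef1 cells. Of the 11, Vim and Crabp1 were called, and both were lower in precursors. Without collagen-rich cells, an alternative chosen after seeing the data that left 516 and 372 precursors and 1142 and 1123 Msx2/Lef1 cells, 622 genes were called, of which 493 were among the 606. The 7 melanocyte markers took 0.0105% and 0.0384% in precursors and 0.0612% and 0.0595% in Msx2/Lef1 cells, with 0 of 7 called, and in mouse 2 5 cells held 69.1% of the precursors' UMIs of these markers. Red blood cell transcripts took 0.215% and 0.0111% of precursor UMIs, and in mouse 1 5 cells held 92.1% of these UMIs. Outer root sheath and basal markers were lower in precursors in 5 of 10 tested cases, where 2.56% of all genes tested were called lower. The whole list took 0.0676% and 0.0665% against 0.162% and 0.175% of UMIs. The part of these cell types in the other differences was not tested, beyond the count without collagen-rich cells.

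Of 19 tested desmosome and adhesion genes, 11 were called higher in precursors and 2 lower, with a median of 1.35. Over all genes tested, 1.95% were called higher and 2.56% lower. Like the other gene lists, this one was chosen with earlier results of these data known, so the count is a description. Dsc1, the desmosomal cadherin desmocollin 1, was at 43.1 and 38.5 CPM in precursors and 3.16 and 3.09 CPM in Msx2/Lef1 cells (log2 fold change 3.88, SE 0.20, edgeR adjusted p = 7.7e-05). Dsg1a, its desmoglein partner, was at 126 and 165 CPM against 18.8 and 26.2 CPM (2.87, SE 0.22). Dsc1 and Dsg1a did not overlap between the classes. Cdh1, the classical E-cadherin of epithelia, was at 150 and 179 CPM against 36.8 and 45.0 CPM (2.18, SE 0.20, edgeR adjusted p = 0.00060). Cldn1, a tight junction claudin, differed by 2.12, Perp, a tetraspan desmosome protein, by 1.88, and the plaque protein Pkp1 by 1.59. The 2 genes lower in precursors were cadherins too. Dsg4, the desmoglein of the hair shaft, was at 1.61 and 1.92 CPM against 15.5 and 11.3 CPM (-2.75, SE 0.34), and Cdh3, P-cadherin of matrix cells, at 47.8 and 57.0 CPM against 168 and 203 CPM (-1.65, SE 0.29). Calls of Dsc1, Dsg1a, Cdh1, Cldn1, Perp, Pkp1 and Dsg4 held whichever sum was left out, whereas that of Cdh3 was lost without either precursor sum and without Msx2/Lef1 mouse 2. Dsp, the desmoplakin of the plaque, was called (1.23) but lost without any of the 6 sums. The plakins Ppl and Evpl, which link keratin to the cornifying envelope, were higher by 2.16 and 2.06.

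Transcription factors split in direction, with 8 of 31 called higher, 6 lower and a median of 0.40. Of all genes tested, 1.95% were called higher and 2.56% lower. Since the classes were split on IRS keratins, Msx2 and Lef1, these calls are description. Gata3 was at 403 and 456 CPM in precursors and 99.9 and 123 CPM in Msx2/Lef1 cells (log2 fold change 2.12, SE 0.18, edgeR adjusted p = 0.00039). Foxn1, the forkhead factor lost in nude mice, was at 45.9 and 58.4 CPM against 6.73 and 5.90 CPM (3.22, SE 0.19, edgeR adjusted p = 0.00015). Dlx5, a distal-less homeobox factor, was at 14.2 and 15.0 CPM against 1.38 and 1.46 CPM (3.53, SE 0.27). In each of these 3 genes both mice agreed closely, and the calls held whichever sum was left out. Grhl3 (2.08) and Zfp750 (2.04), both regulators of epidermal differentiation, were also higher in precursors. Dlx3, a related homeobox factor of the matrix, was at 163 and 160 CPM against 142 and 123 CPM and was not called (0.46, SE 0.20). Cux1 was not called either (0.78, SE 0.30, edgeR adjusted p = 0.13), at levels that differed more between mice than between classes. Hoxc13, the homeobox factor that drives hair shaft keratins, was at 23.7 and 20.8 CPM against 199 and 168 CPM (-2.86, SE 0.23, edgeR adjusted p = 0.00029). Prdm1, a zinc finger repressor, was at 3.37 and 1.92 CPM against 28.2 and 29.9 CPM (-3.25, SE 0.31), and Foxq1, a forkhead factor of the medulla, at 6.30 and 3.84 CPM against 52.1 and 31.9 CPM (-2.85, SE 0.35). Hoxc13, Prdm1 and Foxq1 kept their calls in each leave-out, whereas Msx1 (-1.27), Vdr (-1.08) and Runx1 (-1.07) lost theirs in 3 or more of the 6.

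**Figure D4:**
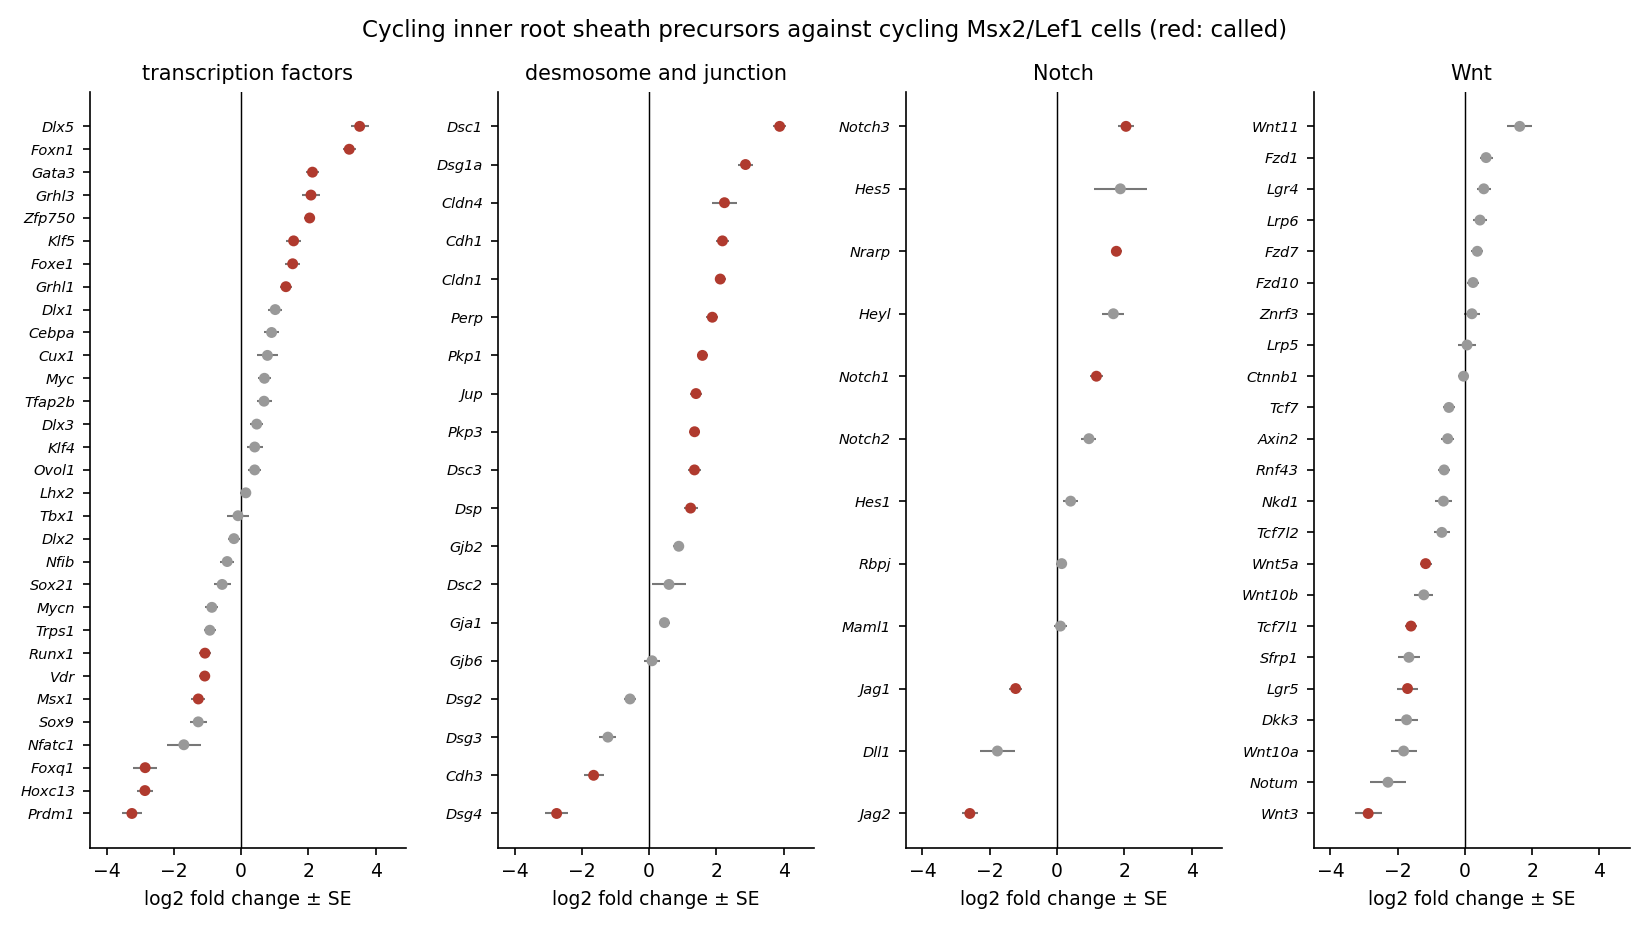
Log2 fold change (x axis, ± SE of the edgeR fit) of precursors against cycling Msx2/Lef1 cells for the tested transcription factors, desmosome and junction genes, Notch and Wnt genes; red points passed the call at an adjusted p under 0.01. Junction genes lie mostly to the right (11 of 19 higher), Notch receptors lie to the right of Notch ligands, and the 4 called Wnt genes lie to the left.

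The called Notch receptors and the called ligands differed in opposite directions. Notch3 was at 38.8 and 58.4 CPM in precursors and 11.2 and 15.1 CPM in Msx2/Lef1 cells (log2 fold change 2.05, SE 0.23, edgeR adjusted p = 0.0013), and Notch1 at 299 and 380 CPM against 151 and 189 CPM (1.17, SE 0.19, edgeR adjusted p = 0.0059). Nrarp, a direct Notch target that dampens the pathway, was at 76.9 and 89.3 CPM against 29.4 and 25.8 CPM (1.76, SE 0.17). The ligand Jag2 was at 10.8 and 11 CPM against 70.0 and 79.2 CPM (-2.59, SE 0.23), and Jag1 at 65.5 and 78.7 CPM against 163 and 219 CPM (-1.23, SE 0.19). So 3 of 12 tested Notch genes were higher and 2 lower, with a median of 0.68, against 1.95% higher and 2.56% lower over all genes tested. The calls of Notch3, Nrarp and Jag2 held whichever sum was left out, whereas Notch1 lost its call in 5 leave-outs and Jag1 in 3.

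Wnt genes were called lower in precursors in 4 of 23 cases and higher in 0 (median -0.62). For this and the other pathways here, the shares over all genes tested were 2.56% lower and 1.95% higher. A gene that is low in precursors, such as Wnt3, could pass the filter on low counts through the Msx2/Lef1 class. That class was also chosen on Lef1, a factor of the Wnt response. The number is thus given as description and is no support for a direction. Wnt3, a ligand of the matrix epithelium, was at 1.32 and 1.57 CPM against 10.7 and 13.4 CPM (log2 fold change -2.88, SE 0.40), and Tcf7l1, a Wnt-repressing TCF factor, at 19.0 and 21.6 CPM against 65.9 and 73.8 CPM (-1.60, SE 0.18). Wnt5a (-1.17) and the R-spondin receptor Lgr5 (-1.71) were lower too. Axin2, the feedback target of Wnt signalling, was not called, at 23.3 and 20.2 CPM against 34.9 and 35.6 CPM (-0.51, SE 0.19). In the BMP pathway 2 of 17 genes were lower, the antagonist follistatin (Fst, -1.88) and the inhibitory Smad7 (-1.14), while the receptor Bmpr1a was at 166 and 196 CPM against 175 and 205 CPM (0.10, SE 0.18). In the hedgehog pathway 2 of 9 were lower, the effectors Gli2 (-1.25) and Gli3 (-1.83), and both lost their calls without either precursor sum. In the FGF, EGF and IGF list of 18, the receptors Erbb2 (1.68) and Erbb3 (1.14) were higher, and Fgfr1 (-1.42) with Dusp6 (-1.99), a phosphatase induced by FGF signalling, lower. Of the called genes in these pathways, Tcf7l1, Fst, Erbb2 and Dusp6 kept their calls whichever sum was left out, and the others lost theirs in 1 or more leave-outs.

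The retinoid genes, which the study's question concerns, were called in 4 of 18 tested cases, 1 higher and 3 lower, with a median of -0.77. The shares over all genes tested were 1.95% higher and 2.56% lower. Lrat, which esterifies retinol for storage, was at 19.3 and 8.72 CPM in precursors and 1.33 and 0.651 CPM in Msx2/Lef1 cells (log2 fold change 4.04, SE 0.63, edgeR adjusted p = 0.0056), with the mice differing in level. Aldh1a3, which makes retinoic acid from retinaldehyde, was at 15.7 and 11 CPM against 124 and 143 CPM (-3.13, SE 0.25, edgeR adjusted p = 0.00029). Crabp1, a retinoic acid-binding protein that is also a dermal papilla marker, was at 7.03 and 10.3 CPM against 59.0 and 57.5 CPM (-2.59, SE 0.21), and Rbp4, a retinol carrier, was lower by -2.40 but lost its call in 4 of 6 leave-outs. Lrat and Aldh1a3 thus differed in opposite directions, and both kept their calls whichever sum was left out. The receptors Rara, Rarg and Rxra were not called, with log2 fold changes of 0.39 (SE 0.18), 0.42 (SE 0.18) and 0.14 (SE 0.17).

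Other called genes with large differences included Ctsc at 452 and 333 CPM against 28.0 and 28.9 CPM (log2 fold change 3.97, SE 0.24, edgeR adjusted p = 0.00015). Sult2b1, which sulfates cholesterol, was at 71.6 and 72.0 CPM against 3.62 and 4.88 CPM (4.25, SE 0.22), and Dmkn, the secreted epidermal protein dermokine, at 340 and 317 CPM against 14.5 and 25.3 CPM (4.23, SE 0.28). Pof1b, an actin-binding junction protein, differed by 3.23 and Taf13, a subunit of the general factor TFIID, by 3.10. Each of these 5 genes kept its call whichever sum was left out. Prr9 ranked highest among the genes named by rank (5.82), at 80.6 and 134 CPM against 1.89 and 2.32 CPM, but in the precursors outside the 20 cells described above it was at 5.38 and 3.77 CPM. Likewise Crym (2.91) and Krt72 (3.92) were called, but stood at 2.24 and 2.15 CPM and at 1.05 and 0.717 CPM in those remaining precursors, against 7.24 and 4.15 CPM and 1.22 and 0.203 CPM in Msx2/Lef1 cells. Krt72 also lost its call without the non-cycling cells of mouse 1. The 20 cells were picked on these genes and the Msx2/Lef1 class was not trimmed likewise, so no direction is read from the remaining cells. Tchh was not called (0.84, SE 0.27, edgeR adjusted p = 0.080), at 262 and 181 CPM against 158 and 123 CPM, and without its top cell the level in mouse 2 was 87.1 CPM, below that of Msx2/Lef1 cells.

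Of the 17 hair shaft markers listed outside Msx2 and Lef1, 4 passed the filter on low counts. A gene could pass through the Msx2/Lef1 class where it is high, so their number is no support for a direction and their values are given as description. The hair keratin Krt35 was at 25.5 and 20.4 CPM against 283 and 155 CPM (log2 fold change -3.07, SE 0.52, edgeR adjusted p = 0.0078), and lost its call without either precursor sum. The other 3 were Krt86 (-2.91), the selenium-binding protein Selenbp1 (-3.25) and Hoxc13. Kitl, the ligand that melanocytes need, was at 19.8 and 23.0 CPM against 149 and 232 CPM (-2.98, SE 0.24), and Gpnmb, a melanosomal glycoprotein, at 17.6 and 15.0 CPM against 150 and 172 CPM (-3.12, SE 0.21). Unc5b, a netrin receptor, differed by -2.88, Prr5l, a partner of the mTORC2 complex, by -3.12 and Fabp4, a fatty acid-binding protein, by -2.83. Of the cell cycle lists, 0 of 27 S phase genes were called, with a median of -0.22, and 0 of 30 G2 and M genes, with a median of 0.72 against 0.035 over all genes. The shares of UMIs in G2 and M genes were 0.475% and 0.413% in precursors and 0.332% and 0.261% in Msx2/Lef1 cells, higher in precursors in both mice. Of the cell cycle inhibitors, Cdkn1a was higher in precursors (1.05, lost in 4 of 6 leave-outs) and Cdkn1c lower (-1.89, lost in 1).

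No precursor was found in the cultured HFSC libraries. Their matrices held 657 barcodes, fewer than the cultured cells that the paper maps onto hair follicle types. Cells of all media were counted together, since the hashtags were not used, so the count does not speak to any single culture condition. Of 356 kept cultured cells, 64 were cycling and 0 met the keratin part of the rule, which allows a share of up to 0.843% (3 counts). The 5 keratins had 11 UMIs among 10885328 there.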

How the data were processed

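The authors deposited UMI counts per gene and called cell, made with Cell Ranger (7.0.0 in the matrix header, 7.0.1 in the submitters' processing notes) on mm10 from 10x 3′ v3 libraries. The deposited counts are whole numbers over 32285 genes, and whether the ambient RNA and doublet removal that the study's methods name touched them was not tested. Members and gene lists were chosen with earlier results of these data known. UMIs were summed per mouse and class and tested with the quasi-likelihood method of edgeR 4.0.16 (R 4.3.3), after TMM scaling and filterByExpr, with Benjamini-Hochberg adjustment over 13451 genes. The fit held 6 sums in 3 classes, with 3 residual degrees of freedom, and the 12 genes that split the classes were left out of calls. Another class, cycling Krt5/Krt14 cells, had 16 cells in mouse 1, under the minimum of 20, and was not tested. Genes named by rank were the 8 highest and 8 lowest called genes per comparison with at least 50 CPM in the higher class and no overlap between mice, and 1 of them is not reported here. Deviations from class means of sums from the same animal correlated at 0.177, 0.495 and 0.132 over 13463 genes, so that the numbers pair the sums. DESeq2 1.42.0 and changed thresholds, cell filters and left-out sums were alternatives. Doublets were called with Scrublet in scanpy 1.11.5. The script for the fit was tested on simulated data. Gene positions came from GENCODE M21. ATAC-seq, CUT&RUN, bulk RNA-seq and hashtag files were not used here.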

Additional observations from a re-analysis of the deposited data

How the results depend on the processing

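The number of precursors followed the thresholds. At 1% IRS keratin there were 87 and 43 (0.602% and 0.309% of kept cells in mouse 1 and mouse 2), at 0.1% there were 1712 and 1122 (11.8% and 8.06%), and with at least 6 cycling UMIs the shares were 3.08% and 2.34%. With 1000 genes and under 5% mitochondrial UMIs the shares were 3.29% and 2.36%, with 246 precursors in mouse 2. Without collagen-rich cells, chosen after seeing the data, the shares were 7.22% and 6.80%, since these cells left the denominator. Against non-cycling cells, the 294 calls became 508 with DESeq2, 749 without the filter on low counts, 602 at an adjusted p under 0.05 with no limit on the fold, 553 with the replicate block and 123 at 1% IRS keratin, and leaving out single sums gave 0 to 393. Against Msx2/Lef1 cells, the 606 calls became 975, 1791, 1803, 1489 and 1020 under the same alternatives, 930 with 4 classes of at least 10 cells each (chosen after seeing the data), and 307 to 873 with single sums left out. The replicate block ended no call among the genes of the lists or named by rank. Of 1205 refitted values of 67 listed or named genes in the first comparison, 156 lost the call and 2 reversed. The reversed genes were Krt75 (0.072 at 1% IRS keratin) and Cd74 (1.45 with 1000 genes and under 5% mitochondrial UMIs). In the second comparison 122 of 1401 values of 78 genes lost the call and 0 reversed. Where fewer cells or sums entered, the alternative itself reduced the data, and otherwise the cause was not tested. The comparison with cycling Krt5/Krt14 cells and its alternatives were not run. Depth limits genes with few UMIs in the non-cycling class, whose sums held 1310987 and 656285 UMIs.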
